A study of Mus musculus with 24 samples.

Results

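The proteasome subunit and assembly genes were taken as the protein-coding genes whose symbols consist of Psm, a letter from a to g and a number, with at most further letters after it. Of 55471 annotated genes, 50 matched. They comprised 19 genes of the core particle, 23 of the regulatory particles and 7 of assembly chaperones, 49 proteasome genes in all, and Psmc3ip, which encodes a meiotic recombination factor and is no part of the proteasome. Psmc3ip was therefore left out of every count below and is described last. RNA of B6D2F1 mice (C57BL/6J crossed with DBA/2N) was measured in MII oocytes, collected from superovulated females and freed of cumulus cells, and in embryos late in the 1-cell (L1C) or the 2-cell stage (L2C), collected as zygotes from mated superovulated females and cultured. Each stage has 3 m6A immunoprecipitation (IP) libraries, made with an anti-m6A antibody on total RNA, and 3 Input libraries without IP from the same batches of RNA, though no source states that equal replicate numbers mark a batch. In a separate experiment zygotes of the same cross received Cas13d mRNA together with 3 crRNAs directed at Ythdc1 (KD, 3 libraries) or the Cas13d mRNA without crRNA (Ctrl, 3 libraries, NC in the labels), and L2C embryos were collected. The Ctrl embryos were thus injected as well, but held no control crRNA.

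The proteasome degrades proteins that carry ubiquitin chains. Its core particle is a barrel of stacked rings, alpha rings outside and beta rings inside, with the proteolytic sites on beta subunits. The regulatory particle binds the ubiquitin chain, removes it and unfolds the substrate with a ring of ATPases, while other activators open the core without ATP, and dedicated chaperones build both particles. In early embryos it removes proteins inherited from the oocyte while the zygotic genome takes over from maternal RNA.

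Total estimated counts ranged from 11107421 to 39739950 over the 18 IP and Input libraries, and the KD and Ctrl libraries held 8696476 to 14500548 counts over the whole annotation where that was deposited. Ythdc1, the targeted gene, was at 523, 541 and 519 CPM (read counts scaled to a common library size) in KD and at 1080, 1098 and 994 in Ctrl, so the groups did not overlap. The summed CPM of 9 oocyte markers was 8067 to 9274 in MII Inputs and 786 to 813 in L2C Inputs, and that of 8 markers of 2-cell embryos at most 35.7 in MII and 492 to 672 in L2C Inputs. Of 10 cumulus and granulosa cell markers, summed CPM lay between 2.67 and 13.7 in all Inputs and Ptx3 was at 0 in each of them. Summed CPM of 6 leukocyte markers was 10.3 to 24.5 over all Inputs, highest at L2C. What the labels call replicates are not stated to come from separate collections, so P values measure the spread between these samples. In such pools, fewer cells of a kind and less RNA per cell cannot be told apart. The labels name a stranded total RNA kit and the methods name oligo-dT priming for RNA-seq, so the amount of an RNA and the length of its tail cannot be told apart either.

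Subunits that meet in the same particle had RNA levels far apart in the Inputs of every stage. Levels of different genes were set side by side as CPM per kilobase of exon. In MII Inputs Psma7 was highest of the alpha subunit genes at 429. Psma3, whose exon junctions match a pseudogene copy, was lowest at 0.122, and Psma5 was next at 1.32. In L2C Inputs the alpha genes ran from Psma5 at 2.82 to Psma6 at 56.9. Psma5 has annotated pseudogene copies too. Of the stretches of 31 bases in its transcripts, 50.5% also occur in Gm8394 and 40% in Gm12989. The part of these copies in the low Psma5 levels was not tested. Among the 7 constitutive beta subunits Psmb2, a structural subunit, was highest at every stage, and it exceeded the lowest gene by 73.1 times in MII, 50.0 times in L1C and 64.9 times in L2C Inputs. Among the 17 ATPase and non-ATPase subunits the ratio of highest to lowest was 105 in MII, 56.5 in L1C and 30.3 in L2C Inputs, with the ubiquitin receptor Psmd4 highest at MII at 202 and Psmd7 highest at L2C at 154. In the exon counts of Ctrl L2C embryos, which are another measure, the alpha genes ran from Psma1 at 22.7 to Psma6 at 145 and the constitutive beta genes from Psmb3 at 13.1 to Psmb2 at 143. The ATPase and non-ATPase subunits ran there from Psmd3 at 3.81 to Psmd7 at 153.

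The quantification differed between the experiments. Reads of Inputs and IPs were assigned to whole gene spans, introns included, and reads of KD and Ctrl to exons of genome alignments. Over 49 genes the L2C Inputs and Ctrl L2C embryos correlated with r = 0.74 and rho = 0.69 on log2(CPM + 0.1), across genes that share libraries and are not replicates. Of 39 proteasome genes with at least 10 CPM in Ctrl, 9 had less than 0.25 of the Ctrl CPM in L2C Inputs, or 23.1%, against 15.6% of 7007 mRNAs with such a level. Core alpha genes had a median ratio of 0.196, with 4 of 7 under 0.25, core beta genes 0.780 and non-ATPase subunits 1.00. The ratio was 0.0478 for Psme2, 0.0737 for Psme4, 0.0746 for Psma3 and 0.0886 for Psma2. It was highest for Psmd3 at 12.4 and Psmd13 at 6.56, subunits of the lid of the regulatory particle. Embryos, library kits and quantification all differ between both experiments and cannot be told apart, so no change was read across them.

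**Figure D1:**
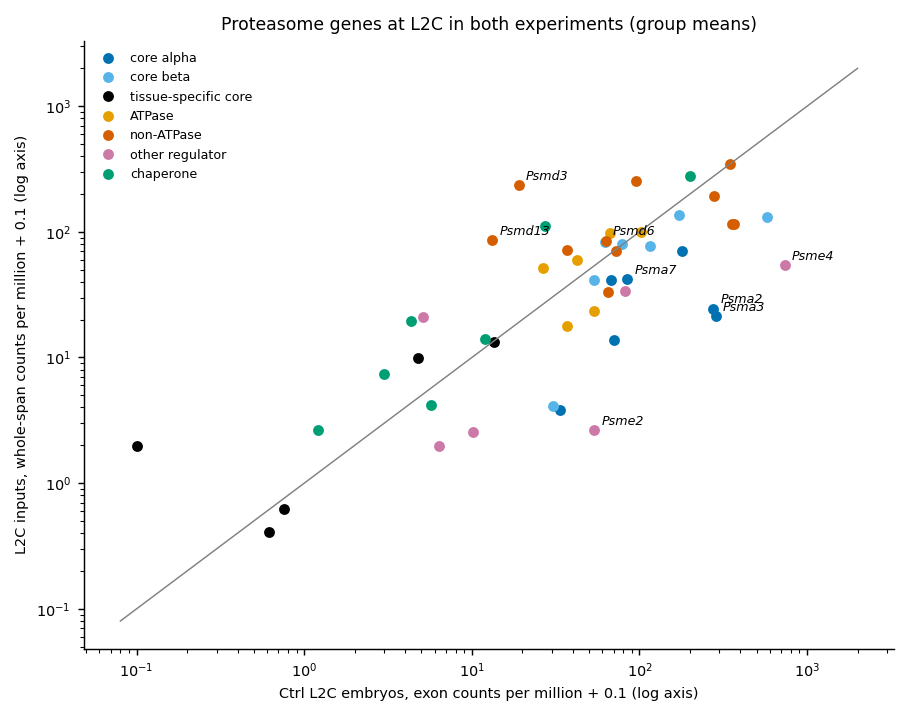
Mean CPM + 0.1 of each proteasome gene in Ctrl L2C embryos (exon counts, x axis, log scale) and in L2C Inputs (whole-span counts, y axis, log scale), coloured by role, with a line at equal values. Psma3, Psme2, Psme4 and Psma2 lie far below the line and Psmd3 and Psmd13 above it.

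For Psma3, an alpha ring subunit (chr12:70974621-70996347, GRCm38, + strand), the exon junctions were compared with the spans. A read across an exon junction has no unbroken match in a gene span that holds its introns. Of 9 junctions inside the Psma3 coding sequence, none was found unbroken in the Psma3 span and 8 were found unbroken in Gm13835, an intronless processed pseudogene (chr6:31141979-31142663) inside the span of Lncpint. The part of this in the low Psma3 values was not tested beyond the sums given next. Of these 9, 3 are shown with 30 bases on each side of the junction and the 10 bases around it in capitals, the first from the junction that Gm13835 lacks and the other two from junctions that it holds.

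Psma3 exons 2 and 3: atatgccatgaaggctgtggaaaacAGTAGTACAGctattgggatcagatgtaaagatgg
Psma3 exons 3 and 4: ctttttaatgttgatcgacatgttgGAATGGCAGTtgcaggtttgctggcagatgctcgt
Psma3 exons 8 and 9: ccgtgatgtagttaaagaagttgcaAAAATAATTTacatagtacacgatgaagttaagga

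Gm13835 was listed at 10.9, 10.2 and 9.86 CPM in MII Inputs, 10.2, 7.29 and 5.34 in L1C Inputs and 58.3, 38.1 and 70.5 in L2C Inputs. These values exceeded those of Psma3 itself, which were 0.431, 0.350 and 0.733 in MII Inputs, then 0.931, 1.62 and 0.970 in L1C Inputs and finally 21.5, 16.8 and 22.2 in those of L2C. In the exon counts of Ctrl L2C embryos, from spliced alignments to the genome, Gm13835 was listed at 136, 127 and 111 CPM over the whole annotation and Psma3 at 297, 293 and 249. With the counts of annotated pseudogene copies added, a check chosen after seeing the data, the log2 change of Psma3 from MII to L1C moved from 1.24 to -0.29 (SE 0.22, edgeR adjusted p = 0.28), and its rise from MII to L2C from 5.33 to 2.81 (SE 0.22, edgeR adjusted p = 2e-08). Of the 50 genes, 12 had such copies, 21 copies in all. Of the 50, 24 overlap the span of another annotated gene, so their Input and IP counts can hold reads of it.

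Changes of Input RNA address how the level of each subunit RNA moved, relative to other RNAs, between the oocyte and the 2-cell embryo. Counts were scaled between libraries without a measure of RNA per embryo. A rise or fall below is thus relative, and does not tell how much RNA was made or lost. Of the 49 proteasome genes 48 passed the filter on low counts, Psmb9 being the exception. From MII to L1C, 12 were higher and 20 lower (edgeR, Benjamini-Hochberg adjusted p under 0.05), where 31.9% of the 19903 genes tested were higher and 24.3% lower. From L1C to L2C, 28 were higher and 13 lower, with 44.1% and 38.8% over all genes. From MII to L2C, 28 were higher and 17 lower, with 47.5% and 37.1% over all genes. The median log2 change of the 48 was -0.17, 0.93 and 0.86 in that order, beside 0.16, 0.17 and 0.40 over all genes tested.

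By course, 7 of the 48 genes fell at both steps, Psma1, Psma7, Psmd1, Psmd2, Psmd4, Psmd9 and Psmg1, as did 10.5% of the 19903 genes tested. Another 8 rose at both, namely Psma3, Psma6, Psma8, Psmb7, Psmb11, Psmc2, Psmd5 and Psmd12, beside 14.7% of all genes. Of these, Psma8 had no call at the first step without MII Input 2, MII Input 3 or L1C Input 1 (edgeR adjusted p = 0.087, 0.079 and 0.13), and Psma3 had none there with its copies added (log2 change -0.29, edgeR adjusted p = 0.28). There were 9 that fell to L1C and then rose, beside 9.78% of all genes. The first-step calls of Psmc3, Psmc4 and Psme2b among these 9 were lost in some fits without 1 library. Psmc5 and Psmd10 rose and then fell, a course that 12.3% of all genes took, and 11 genes rose at the second step without a call at the first, beside 19.7% of all genes.

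**Figure D2:**
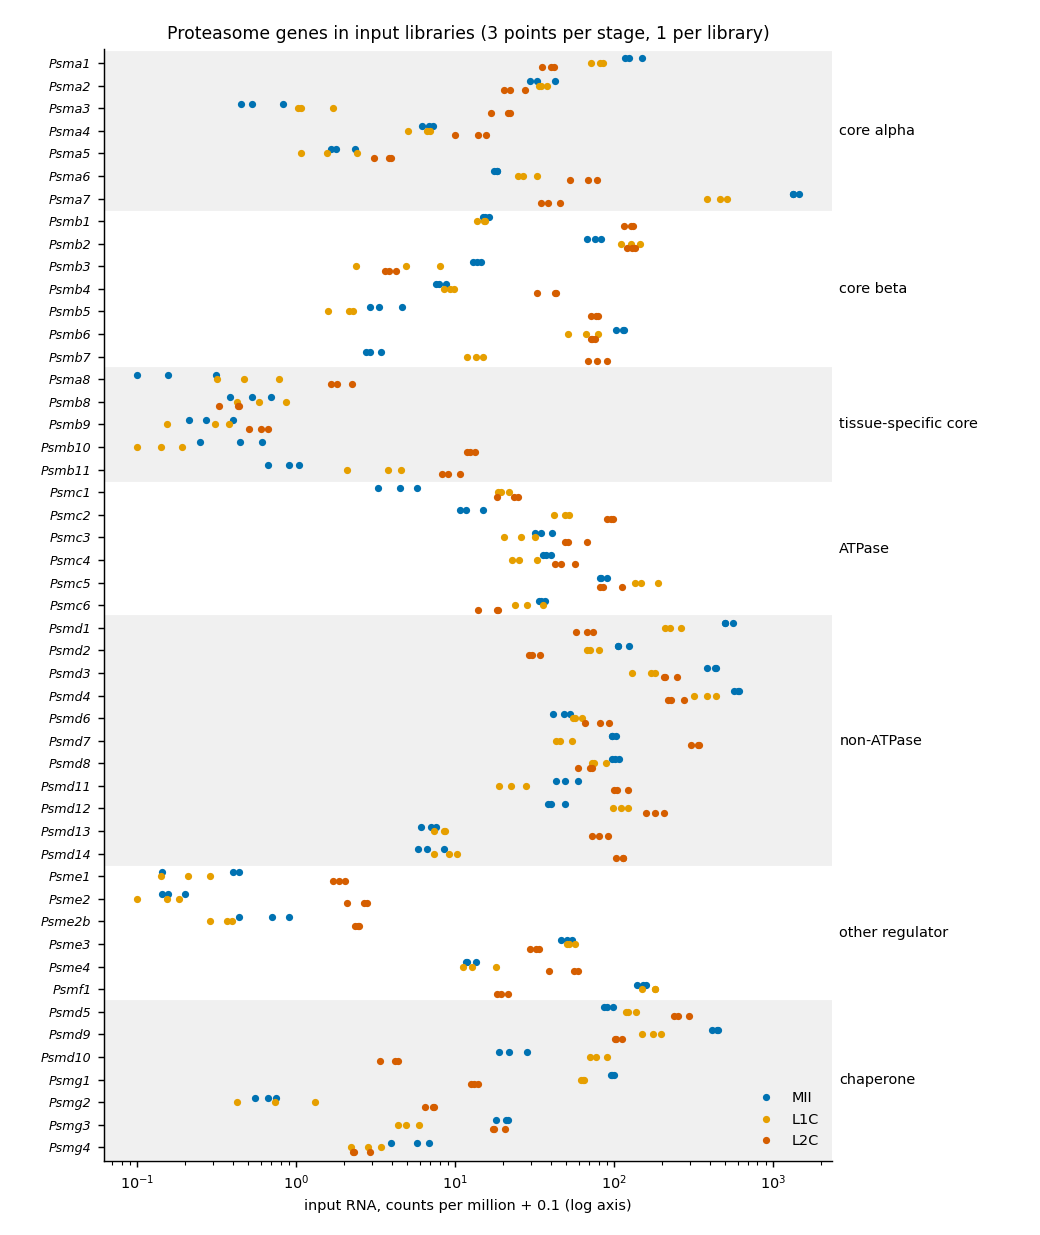
CPM + 0.1 of each proteasome gene (rows, grouped by role) in each of 9 Input libraries on a log axis, with 3 points per stage. Psma7 moves from 1337 to 1458 at MII to 34.9 to 45.4 at L2C, while Psmb5, Psmb7 and Psmd14 move upward to L2C.

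Among the core alpha genes, 4 of 7 were higher and 3 lower at L2C than at MII. Psma7 (chr2:180036374-180042433, - strand) was the most abundant proteasome RNA of the oocyte per kilobase and fell furthest. Its CPM was 1458, 1337 and 1345 in MII Inputs, 383, 463 and 512 in L1C Inputs and 34.9, 45.4 and 38.3 in L2C Inputs. The 3 stages did not overlap, and Psma7 fell by 1.61 (SE 0.14, edgeR adjusted p = 3.5e-07) and then fell by 3.52 (SE 0.15, edgeR adjusted p = 3.6e-11) on the log2 scale. Summed over the 7 genes, alpha subunit RNA fell from 1573 ± 91.0 CPM (SD, n = 3) at MII to 605 ± 55.1 at L1C and 205 ± 21.2 at L2C. Without Psma7 the sums were 193 ± 23.7, 152 ± 11.8 and 165 ± 24.8. Psma1 also fell at both steps, with log2 changes of -0.72 and -1.03. Psma6 rose at both, from 18.2, 17.6 and 18.4 CPM at MII to 68.6, 52.9 and 78.3 at L2C, while Psma4 and Psma5 rose at the second step alone, by 1.09 and 1.16.

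Core beta genes were mostly higher at L2C, 5 of 7 against MII with 2 lower. The genes of the proteolytic subunits had separate courses. Psmb7, the subunit with trypsin-like activity, was at 3.32, 2.65 and 2.82 CPM in MII Inputs, 13.5, 11.8 and 14.8 in L1C Inputs and 78.0, 68.5 and 90.2 in L2C Inputs, a log2 change of 4.75 from MII to L2C (SE 0.18, edgeR adjusted p = 9.9e-12). Psmb5, the subunit with chymotrypsin-like activity, was at 4.52, 2.80 and 3.21 CPM at MII, fell to 1.48, 2.18 and 2.05 at L1C and rose to 71.5, 77.4 and 79.7 at L2C. The L2C values of both stood well clear of every earlier library. Psmb6, the subunit with caspase-like activity, was instead highest in the oocyte, at 103, 114 and 116 CPM, with 73.0, 71.8 and 75.5 at L2C (log2 change -0.59, SE 0.15, edgeR adjusted p = 0.0016). Psmb3, a structural beta subunit, fell by 1.85 on the log2 scale between MII and L2C (SE 0.32, edgeR adjusted p = 7.5e-05). Summed over 7 genes, beta subunit RNA was 230 ± 6.74 CPM at MII, 238 ± 18.4 at L1C and 525 ± 27.3 at L2C (SD, n = 3).

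Tissue-specific core subunits were low in MII and L1C Inputs, each under 1 CPM per kilobase of exon, and parted at L2C. Psmb8, Psmb9 and Psmb10 replace constitutive proteolytic subunits in the immunoproteasome, Psmb11 does so in the thymus, and Psma8 is an alpha subunit of the testis. Psmb8 lay between 0.228 and 0.761 CPM over the 9 Inputs with no call at any step, and Psmb9 between 0.0539 and 0.571. Psmb10 held 20 counts over the 3 MII Inputs, 3 over the L1C Inputs and 1141 over the L2C Inputs, or 12.4, 11.8 and 13.3 CPM at L2C. Its L2C to L1C ratio, scaled to library size, was 269 with an exact interval of 91.8 to 1306 at 95% that covers counting error only. Psmb11 rose to 8.98, 10.6 and 8.18 CPM at L2C from 0.948, 0.799 and 0.564 at MII (log2 change 3.55, SE 0.32, edgeR adjusted p = 9.5e-08). Psma8 reached 1.55, 1.71 and 2.15 CPM at L2C, from 0.215, 0.00 and 0.0564 at MII. Psmb10 overlaps another gene, and no overlap was found for Psmb11.

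The ATPases form the ring that unfolds substrates, and 4 of 6 were higher and 1 lower at L2C than at MII. Psmc2 rose at both steps, from 10.6, 11.6 and 15.0 CPM at MII through 49.0, 41.7 and 51.9 to 95.2, 98.7 and 90.3 at L2C (log2 change 2.94, SE 0.16, edgeR adjusted p = 2.7e-10). Psmc1 had its rise before L1C, by 2.18 on the log2 scale (SE 0.21, edgeR adjusted p = 1.1e-06), and was at 0.15 from L1C to L2C without a call. Psmc5 went up by 0.89 and down by 0.76, so that MII and L2C Inputs overlapped. Psmc6 was the one ATPase lower at L2C than at MII, from 33.9, 34.8 and 36.7 to 18.5, 13.8 and 18.3 CPM. Psmc4 was called lower at L1C with -0.49, a call that was lost without MII Input 3, L1C Input 1 or L1C Input 2, and its higher call of 0.36 at L2C against MII was lost in 6 fits without 1 library. Summed ATPase RNA was 211 ± 9.98 CPM at MII, 307 ± 38.6 at L1C and 332 ± 36.1 at L2C (SD, n = 3).

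Non-ATPase subunits include the ubiquitin receptors and the scaffold of the regulatory particle, and 6 of 11 were higher and 5 lower at L2C than at MII. Psmd14, the deubiquitinase that cuts the chain off at its base, rose most. Its CPM was 5.77, 6.59 and 8.40 at MII and still 10.2, 9.05 and 7.28 at L1C, but 114, 103 and 114 at L2C, with a log2 change of 3.64 at the second step (SE 0.17, edgeR adjusted p = 1.1e-10). Its structural partner Psmd7 went from 103, 97.8 and 97.3 CPM at MII to 45.6, 43.4 and 54.1 at L1C and 306, 345 and 339 at L2C. Both partners were thus highest at L2C, and only Psmd7 had a call, a lower one, at L1C. Psmd1, a large scaffold subunit, fell from 565, 503 and 497 CPM at MII to 266, 210 and 226 at L1C, and then to 67.7, 57.7 and 73.4 at L2C (log2 change -2.98, SE 0.14, edgeR adjusted p = 6.7e-11). The other large scaffold subunit, Psmd2, fell by 1.84 on the log2 scale and the ubiquitin receptor Psmd4 by 1.31, with no overlap of MII and L2C Inputs in either. Psmd3 had 386, 440 and 433 CPM at MII and 130, 171 and 180 at L1C (log2 change -1.39, SE 0.14, edgeR adjusted p = 1.7e-06). Psmd12 had the largest rise of the role before L1C, by 1.38 (SE 0.14, edgeR adjusted p = 2.4e-06).

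Among other regulators, the PA28 activator genes Psme1 and Psme2 were at or under 0.338 CPM in all MII and L1C Inputs. At L2C they were at 1.93, 1.62 and 1.77 CPM and at 1.99, 2.71 and 2.56 CPM. Psme2 held 4 counts over all MII Inputs, 3 over the L1C Inputs and 217 over those of L2C, and its L2C to MII ratio was 36.7 (14.1 to 136, exact interval at 95%). Of the stretches of 31 bases in Psme2 transcripts, 62.6% also occur in Psme2b, whose span holds no intron. Psme2b had 14, 16 and 6 counts in MII Inputs and 70, 47 and 95 in L2C Inputs. Whether reads of Psme2 are among them was not tested. Psme4, which encodes the PA200 activator, rose by 1.88 on the log2 scale at the second step (SE 0.20, edgeR adjusted p = 7.5e-07). Psmf1, which encodes a protein that binds the core and was described as an inhibitor, was at 159, 152 and 140 CPM in MII Inputs and 151, 181 and 182 in L1C Inputs, against 21.3, 19.5 and 18.4 in L2C Inputs. It had no call from MII to L1C, with 0.19, and fell by 3.12 afterwards (SE 0.13, edgeR adjusted p = 3.4e-11). Psme3, the nuclear PA28 subunit, fell by 0.72 at the second step. Psme2b was called lower at L1C with -1.21, a call that DESeq2 and the fit without a filter did not make. The fit with the replicate number as a block did not make it either (edgeR adjusted p = 0.063).

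Assembly chaperones were the role with the lowest median, and 2 of 7 were higher and 4 lower at L2C than at MII. Psmd10, a chaperone of the ATPase ring, was at 28.2, 21.7 and 18.8 CPM at MII, rose to 90.6, 71.0 and 77.2 at L1C (log2 change 1.80, SE 0.17, edgeR adjusted p = 1.1e-06) and fell to 4.12, 3.28 and 4.30 at L2C (log2 change -4.34, SE 0.20, edgeR adjusted p = 6.6e-11). No library of one stage overlapped another. Psmd5 and Psmd9, chaperones of the same ring, went opposite ways: Psmd5 rose by 1.51 between MII and L2C while Psmd9 fell by 2.05. Psmg1 and Psmg2 form a dimer that starts the alpha ring. Psmg1 fell from 97.7, 95.9 and 99.4 CPM at MII to 13.0, 12.6 and 13.9 at L2C (log2 change -2.89, SE 0.12, edgeR adjusted p = 2.1e-11), and Psmg2 rose from 0.646, 0.449 and 0.564 to 7.16, 7.33 and 6.35 (log2 change 3.63, SE 0.36, edgeR adjusted p = 2.4e-07). Psmg3, of the second such dimer, fell by 2.01 to L1C and rose by 1.88 to L2C, and its partner Psmg4 was lower at L2C than at MII with -1.16.

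Set side by side, the core genes had a median log2 change from MII to L2C of 1.42 with 12 of 18 higher and 5 lower. The regulatory genes had 0.76 with 14 of 23 higher and 8 lower, and the assembly genes -1.16 with 2 of 7 higher and 4 lower. At the first step the medians were -0.03, -0.39 and -0.62, and at the second 1.21, 0.72 and -0.17. These are descriptions of lists chosen with results known, and differences between the lists were not tested. Within every list both directions occurred, with 4.75 for Psmb7 and -5.13 for Psma7 in the core, 4.00 for Psmd14 and -2.98 for Psmd1 in the regulatory, and 3.63 for Psmg2 and -2.89 for Psmg1 in the assembly genes.

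IP/input compares how an RNA is represented after m6A immunoprecipitation with its Input. It is a ratio relative to the other RNAs of the libraries and no share of methylated molecules. All 49 proteasome genes passed the filter in the joint fit of 18 libraries. At MII, 20 were higher in IP than in Input and 6 lower (edgeR adjusted p under 0.05), where 17.7% of 21950 genes were higher and 21.0% lower. At L1C, 23 were higher and 6 lower, with 15.8% and 18.2% over all genes. At L2C, 15 were higher and 10 lower, with 22.0% and 22.0% over all genes. Their median log2 IP/input was 0.36, 0.45 and 0.14, beside 0.00, 0.07 and 0.09 over all genes tested. Scaled to library size alone the counts were 27 higher and 4 lower at MII, then 33 and 2 for L1C, and 21 and 7 for L2C.

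Higher calls were made at all 3 stages for 12 of the 49 genes, namely Psma1, Psma2, Psma4, Psma6, Psmb2, Psmb4, Psmb7, Psmc6, Psmd6, Psmd14, Psme3 and Psme4, and for 6.50% of the 21950 genes tested. With the replicate number as a block Psmb4 was not called at L1C or L2C (edgeR adjusted p = 0.071 and 0.072). Its calls there, that of Psmc6 at MII and those of Psma4 and Psmd6 at L2C were also lost in fits without 1 library. Lower calls were made at all 3 for Psmd2, Psmd3 and Psmf1, and for 9.54% of all genes, but that of Psmf1 at L1C was lost without L1C Input 2 or 3 and when scaled to library size. Psmb10 and Psmc3 had calls in both directions, none of which held in every fit, and 12 genes had no call at any stage. The lower calls of both at L2C ended when scaled to library size (edgeR adjusted p = 0.077 for Psmb10 and 0.06 for Psmc3), and that of Psmb10 also in 3 fits without 1 library. The higher call of Psmb10 at L1C was lost with the block (edgeR adjusted p = 0.07) and in 4 fits without 1 library, and that of Psmc3 at MII without MII Input 1 or MII IP 3. In the paragraphs on IP/input that follow, that on its change between stages included, Input CPM are scaled over all 18 libraries and differ from those above.

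**Figure D3:**
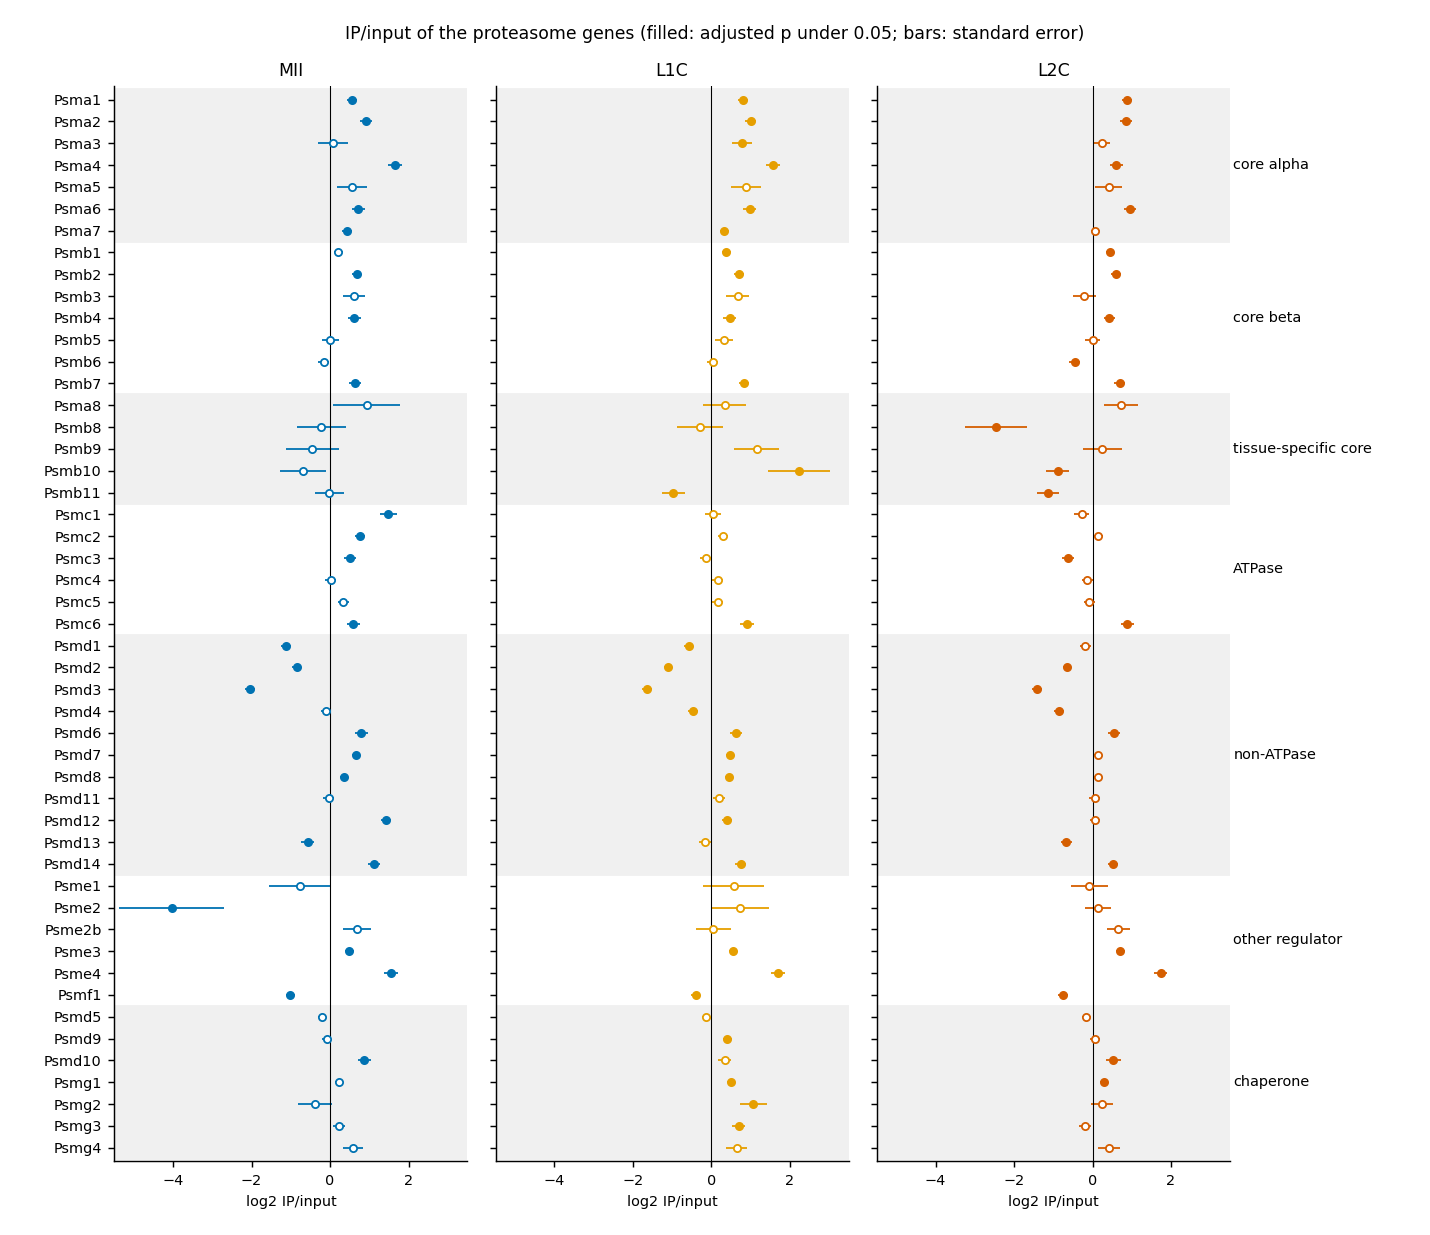
log2 IP/input with its standard error for each proteasome gene (rows, grouped by role) at MII, L1C and L2C, filled where the adjusted p is under 0.05. Psme4 lies right of 0 and Psmd3 left of 0 at all 3 stages.

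The core list had 8 higher calls of 19 at MII, 11 higher and 1 lower at L1C, and 8 higher and 4 lower at L2C. Each of the 7 alpha genes had a log2 IP/input above 0 at each stage, and 5, 6 and 4 of them were called. For Psma3, called at L1C with 0.79, IPs and Inputs overlapped. That call was lost with only the libraries compared (edgeR adjusted p = 0.085) and without L1C Input 1, L1C Input 3, L1C IP 2 or L1C IP 3. Psma4 had the highest value of the alpha genes, with 24.2, 25.4 and 27.4 CPM in MII IPs against 8.80, 8.15 and 7.31 in MII Inputs. This was a log2 IP/input of 1.66 at MII (SE 0.18, edgeR adjusted p = 4.5e-07), followed by 1.58 at L1C and 0.61 at L2C, and IP and Input libraries did not overlap at any stage. Psma2 was at 0.92, 1.00 and 0.86. Psma7 was called higher at MII with 0.43 and at L1C with 0.33, and the L1C call was lost, among others, without L1C Input 1 or L1C IP 1. Among beta genes, Psmb7 was at 0.64, 0.84 and 0.69 and Psmb2 at 0.68, 0.71 and 0.60, while Psmb6 was called lower at L2C with -0.45, which ended when scaled to library size. Psmb11 was called lower at L1C with -0.97 and at L2C with -1.13, and Psmb8 at L2C with -2.47 on few counts. The L1C call of Psmb11 ended when scaled to library size. It was also lost without L1C Input 2, L1C Input 3 or L1C IP 2 (edgeR adjusted p = 0.053, 0.098 and 0.067). The L1C value of Psmb10 rests on 24 counts in IPs and 3 in Inputs, a ratio of 5.14 with an exact interval of 1.56 to 26.7 at 95%.

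The regulatory list held calls in both directions at every stage, 11 higher and 6 lower of 23 at MII, then 8 and 5 for L1C, and 5 and 6 for L2C. Psme4 had the highest log2 IP/input of the regulatory genes at all 3 stages. Its IPs were at 42.8, 39.4 and 47.5 CPM in MII oocytes, 52.4, 56.6 and 45.7 in L1C embryos, and 170, 155 and 170 in L2C embryos. Its Inputs were at 14.3, 14.1 and 15.9 CPM in MII oocytes, 20.6, 14.4 and 12.5 in L1C embryos, and 54.4, 36.7 and 57.1 in L2C embryos. Every IP thus exceeded every Input of its stage, and the log2 IP/input was 1.55, 1.70 and 1.74 (SE 0.18, 0.18 and 0.17). Psmd14 was also higher at all 3 stages, with 1.12, 0.75 and 0.52, and Psmc6 with 0.59, 0.91 and 0.89.

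Psmd3 lay at the other end, with 119, 129 and 117 CPM in MII IPs against 472, 528 and 515 in MII Inputs. Its log2 IP/input was -2.05 at MII, then -1.65 for L1C and -1.42 for L2C (SE 0.13 each, the largest edgeR adjusted p = 1e-07), and IPs did not overlap Inputs at any stage. Psmd3 was also the gene whose Input level most exceeded its exon counts in Ctrl embryos, as given above, and it overlaps Gm12356. Psmd2 was at -0.85, -1.10 and -0.65 and Psmf1 at -1.01, -0.40 and -0.75. For Psmd1 the call was lower at MII with -1.12 and at L1C with -0.58, and it was -0.18 without a call at L2C. The L1C call of Psmd1 ended when scaled to library size (edgeR adjusted p = 0.068). Psme2 counts among the lower calls at MII, but on 0 counts in IPs and 4 in Inputs, whose ratio has an exact interval at 95% that reaches 1.45, so a difference was not detectable at this depth. DESeq2 did not make this call.

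Of the 7 assembly genes 1 was called higher at MII, while 4 were for L1C and 2 for L2C, and the others had no call. Psmd10 was called higher at MII with 0.87 (SE 0.17, edgeR adjusted p = 0.0004) and at L2C with 0.53, a call lost in 4 fits without 1 library. Psmg1 was called higher at L1C with 0.49 and at L2C with 0.30, the latter lost without L2C Input 1, L2C Input 2 or L2C IP 3. That L2C call was also lost with the replicate block, with only the libraries compared and without a filter (edgeR adjusted p = 0.054, 0.11 and 0.26). Psmd9, the most abundant of the chaperones in oocytes by CPM, overlaps Hpd, Gm26745 and Gm43409, whose reads its counts can hold. It had 490, 510 and 482 CPM in MII IPs and 510, 542 and 528 in MII Inputs, values that overlapped. Its L1C IPs at 250, 242 and 298 CPM were above its L1C Inputs at 173, 224 and 199 (log2 IP/input 0.41, SE 0.12, edgeR adjusted p = 0.016), a call lost without L1C Input 1 or L1C IP 3. Psmd5 was at -0.21, -0.14 and -0.16 with no call. The GGACT motif of the m6A site consensus, counted for each of the 49 genes in the transcript with the longest coding sequence, had a rank correlation with log2 IP/input of -0.04 at MII, then -0.22 for L1C and -0.19 for L2C, and per kilobase of 0.11, -0.08 and -0.18. These are descriptions across genes that share the same libraries.

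Whether IP/input of a gene differed between stages was tested as an interaction. From MII to L1C, 1 proteasome gene was higher and 2 lower, with 3.13% and 4.21% over all genes. From L1C to L2C, 0 were higher and 3 lower, with 5.00% and 4.47% over all genes. DESeq2 also called 0 higher there, and 2 were higher at an unadjusted edgeR p under 0.05. The 3 lower calls, Psma4, Psmb10 and Psmg3, and the higher call of Psmf1 from MII to L1C were not made with the replicate number as a block (edgeR adjusted p = 0.07, 0.061, 0.066 and 0.07). From MII to L2C, 2 were higher and 8 lower, with 11.1% and 9.21% over all genes, and 14 were lower where only the libraries compared were fitted. With the block Psmd7 and Psmd14 had no call (edgeR adjusted p = 0.067 and 0.05), and fits without 1 library lost Psmc2, Psmd14 and, on the higher side, Psmd3. Of the 8 lower, 7 were regulatory genes: Psmc1, Psmc2, Psmc3, Psmd4, Psmd7, Psmd12 and Psmd14, and the last was Psma4. Psmc1 moved most, from 15.9, 13.3 and 15.2 CPM in IPs against 5.38, 3.83 and 6.70 in Inputs at MII to 13.8, 24.0 and 15.5 in IPs against 17.8, 23.4 and 22.8 in Inputs at L2C. Its IPs lay above its Inputs at MII and overlapped them at L2C, a change of -1.76 in log2 IP/input (SE 0.29, edgeR adjusted p = 0.00026). Psmd12 changed in a like way, from a log2 IP/input of 1.42 at MII to 0.06 at L2C, a change of -1.36 (SE 0.18, edgeR adjusted p = 3.1e-05). Input RNA of both genes rose over the same stages, by 2.34 and 2.10 on the log2 scale, and the ratio has the same Inputs as its denominator. Psmd4 went from -0.10 to -0.85, a change of -0.75 (SE 0.17, edgeR adjusted p = 0.004). The 2 genes that were higher at L2C than at MII, Psmd1 with 0.94 and Psmd3 with 0.63, both started from values under -1 at MII.

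KD of Ythdc1, a nuclear reader of m6A, was followed by higher RNA of most proteasome genes in L2C embryos. Of the 49, 17 lie in the merged count table of all 6 libraries and 32 beyond it, where 2 KD and 3 Ctrl libraries have values. Of those in the merged table, 14 of 17 were higher and 1 lower (edgeR adjusted p under 0.05), where 33.5% of 7433 genes were higher and 37.4% lower. Of those beyond it, 29 passed the filter, of which 21 were higher and 2 lower, with 30.5% and 36.4% of 17074 genes. Over the 46 genes tested, 35 were higher, 3 lower and 8 without a call, with a median log2 change of 0.70. All-gene medians were -0.06 in the table and -0.09 in the whole annotation. Summed CPM of the oocyte markers was 1578 to 1717 in Ctrl and 781 to 851 in KD, and that of the 2-cell markers 1130 to 1177 and 330 to 372. The leukocyte markers summed to 27.8 to 41.7 and 16.6 to 18.7, and the cumulus and granulosa markers to 6.43 to 9.42 and 7.92 to 9.80. The part of these shifts in the proteasome result was not tested.

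**Figure D4:**
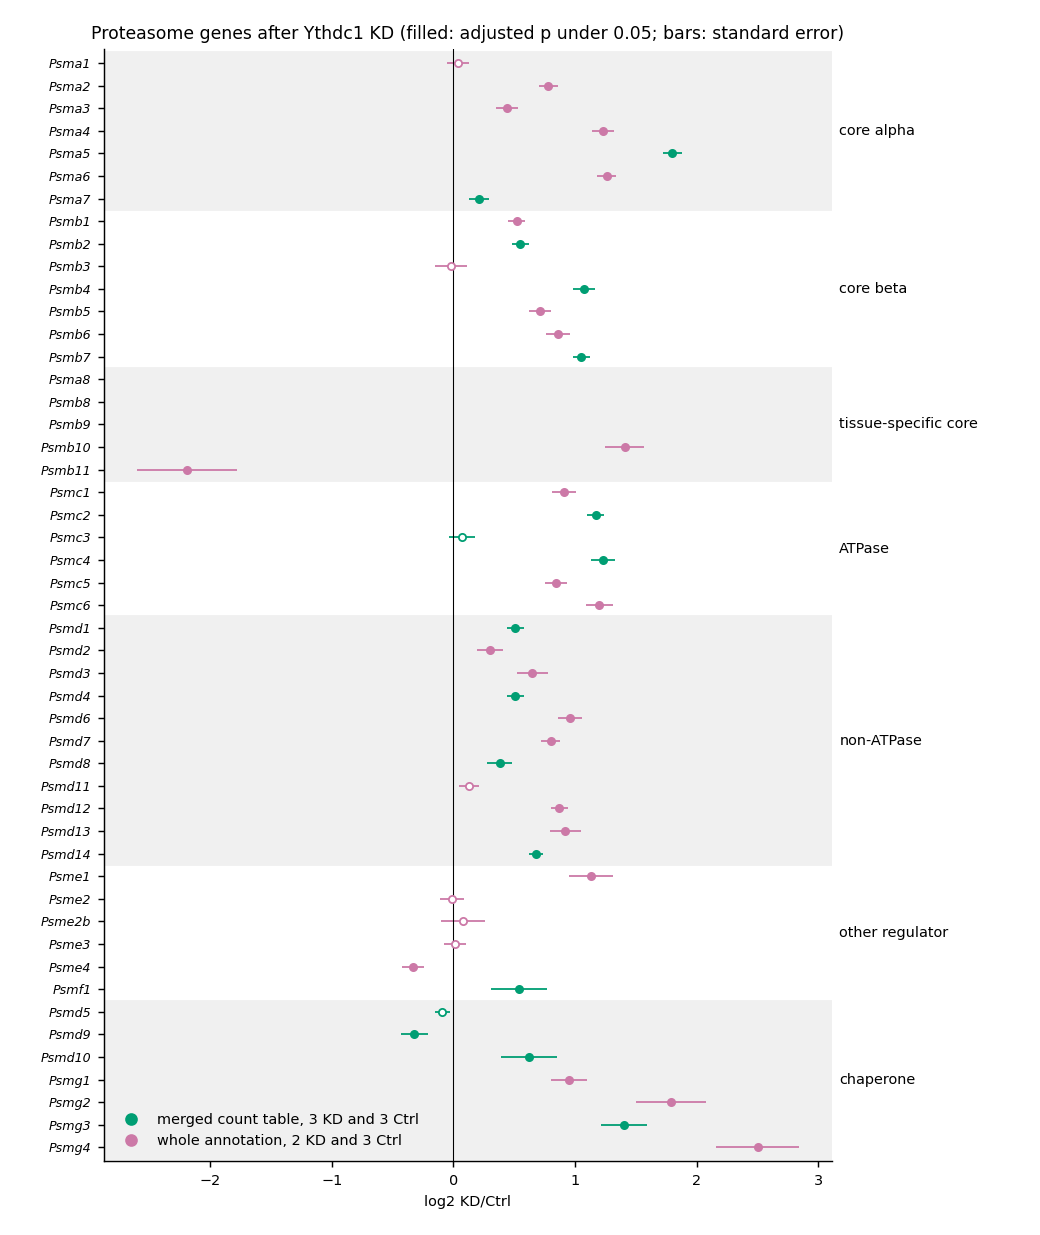
log2 KD/Ctrl with its standard error for each tested proteasome gene (rows, grouped by role), in green from the merged table (3 KD, 3 Ctrl) and in pink from the whole annotation (2 KD, 3 Ctrl), filled where the adjusted p is under 0.05. Most points lie right of 0, and Psmb11, Psme4 and Psmd9 lie left of it with calls.

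Of the 16 core genes tested 13 were higher and 1 lower, with a median of 0.75. Psma5, an alpha ring subunit, had the largest change of the genes in the table, with 302, 283 and 306 CPM in KD and 86.2, 82.9 and 86.9 in Ctrl. KD exceeded Ctrl in every library, by 1.80 on the log2 scale (SE 0.08, edgeR adjusted p = 2e-12). Psma6 rose by 1.26, Psma4 by 1.23, Psma2 by 0.78 and Psma3 by 0.44, each beyond the table, and Psma1 was at 0.04 without a call. Psma7 was at 252, 244 and 249 CPM in KD and 205, 206 and 236 in Ctrl (log2 change 0.21, SE 0.08, edgeR adjusted p = 0.021). The call ended when scaled to library size, and without KD 1, KD 3, Ctrl 1 or Ctrl 2 (edgeR adjusted p = 0.057, 0.054, 0.073 and 0.082). Summed over the 7 alpha genes, CPM over the whole annotation was 1705 ± 91.3 in KD (SD, n = 2) and 977 ± 49.3 in Ctrl (SD, n = 3).

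All 3 proteolytic beta subunits rose. Psmb7 was at 336, 333 and 323 CPM in KD and 159, 164 and 156 in Ctrl (log2 change 1.05, SE 0.07, edgeR adjusted p = 4.3e-10). These CPM are scaled to the merged table. Over the whole annotation Psmb7 was at 130 and 128 CPM in KD and 61.1, 63.2 and 59.6 in Ctrl. On that scale Psmb5 was at 126 and 126 CPM in KD and 76.6, 70.5 and 84.1 in Ctrl, and Psmb6 at 190 and 222 against 107, 109 and 125. The groups overlapped in none of the 3. Of the structural beta subunits, Psmb4 rose by 1.07, Psmb2 by 0.55 and Psmb1 by 0.52, and Psmb3 was at -0.02 without a call. Over the whole annotation the summed beta subunit CPM was 1649 ± 15.6 in KD (SD, n = 2) and 1067 ± 42.9 in Ctrl (SD, n = 3).

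Of the tissue-specific subunits, Psmb10 rose from 12.2, 13.2 and 14.3 CPM in Ctrl to 28.5 and 41.4 in KD, by 1.41 (SE 0.16, edgeR adjusted p = 1.3e-06). Psmb11 fell from 3.90, 4.13 and 5.76 CPM to 1.39 and 0.535, by 2.19 (SE 0.41, edgeR adjusted p = 0.00021). Psma8 did not pass the filter, with 4 and 11 counts in KD and 0 in each Ctrl library, nor did Psmb8 and Psmb9, whose CPM were at most 0.919 in any library.

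Regulatory genes were higher in 17 of 23 cases and lower in 1, with a median of 0.65. The ATPases were higher in 5 of 6. Psmc2 was at 563, 580 and 613 CPM in KD and 283, 250 and 247 in Ctrl (log2 change 1.17, SE 0.07, edgeR adjusted p = 1.2e-10), and Psmc4 at 150, 162 and 161 against 59.8, 65.1 and 79.1. Both lay above Ctrl in every KD library. Psmc6 rose by 1.20, Psmc1 by 0.91 and Psmc5 by 0.84, while Psmc3 was at 0.07 and its groups overlapped. The CPM of Psmc2 and Psmc4 above are scaled to the merged table. Over the whole annotation, where Psmc2 was at 218 and 223 CPM in KD, summed ATPase CPM was 625 ± 3.74 in KD (SD, n = 2) and 322 ± 4.15 in Ctrl (SD, n = 3).

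Non-ATPase subunits were higher in 10 of 11 cases, and none of these changes exceeded 1 on the log2 scale. Psmd14 was the most abundant of the 4 in the merged table by CPM, at 1490, 1408 and 1478 in KD and 935, 909 and 885 in Ctrl (log2 change 0.68, SE 0.06, edgeR adjusted p = 8e-09). Its KD libraries lay above every Ctrl library. Psmd6 rose by 0.96, Psmd13 by 0.92, Psmd12 by 0.87, Psmd7 by 0.80 and Psmd3 by 0.65. Psmd1 and Psmd4 rose by 0.51 each, Psmd8 by 0.38 and Psmd2 by 0.30, the last with a call that ended when scaled to library size and without KD 1, KD 2, Ctrl 1 or Ctrl 2. Psmd11 was at 0.13 without a call.

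Other regulators had 2 higher calls and 1 lower of 6. Psme1 rose from 5.81, 5.90 and 6.65 CPM in Ctrl to 13.3 and 13.4 in KD (log2 change 1.13, SE 0.18, edgeR adjusted p = 5.4e-05), while its PA28 partner Psme2 was at 53.4, 50.9 and 52.7 in Ctrl and 51.3 and 52.7 in KD (log2 change -0.01, SE 0.10). Whether the partners differ from each other was not tested. Psme4 fell from 789, 743 and 632 CPM in Ctrl to 597 and 551 in KD (log2 change -0.33, SE 0.09, edgeR adjusted p = 0.0037), without overlap. Psmf1 had a higher call with 0.54, but its groups overlapped and DESeq2 did not make the call. Psme2b at 0.08 and Psme3 at 0.01 had no call.

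Assembly genes were higher in 5 of 7 cases and lower in 1, with a median of 0.95. All 4 chaperones of the core rose: Psmg4 from 1.09, 1.53 and 0.665 CPM in Ctrl to 5.73 and 7.17 in KD, by 2.50 (SE 0.34, edgeR adjusted p = 1.1e-05), Psmg2 by 1.79, Psmg3 by 1.40 and Psmg1 by 0.95. Of the chaperones of the ATPase ring, which were not tested against each other, 1 had a higher call and 1 a lower call. Psmd10 had a higher call with 0.62 although its groups overlapped, at 20.6, 22.5 and 23.8 CPM in KD and 11.9, 21.5 and 9.56 in Ctrl, and the call ended when scaled to library size and without KD 3, Ctrl 1 or Ctrl 3. Psmd5 was at 474, 456 and 506 CPM in KD and 497, 511 and 526 in Ctrl with no call, and Psmd9 had a lower call at -0.32 (SE 0.11, edgeR adjusted p = 0.011), which fits without KD replicate 1 or Ctrl replicate 2 did not make. The CPM of Psmd10 and Psmd5 above are scaled to the merged table and those of Psmg4 to the whole annotation. Over the whole annotation, where Psmd5 was at 183 and 175 CPM in KD, summed chaperone CPM was 259 ± 1.64 in KD (SD, n = 2) and 248 ± 5.48 in Ctrl (SD, n = 3).

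Set against the course of Input RNA, 20 of the 35 genes higher in KD had been higher at L2C than at MII, 13 lower and 2 without a call. Of all genes higher in KD and tested in the Inputs, 63.1% of 2220 in the merged table and 65.0% of 4655 in the whole annotation had been higher at L2C, and 25.0% and 23.3% lower. Psmd1 and Psmg1 were among the RNAs that had fallen after MII, and Psmb7 and Psmd14 among those that had risen.

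Promoter sequence was available from RefSeq (GRCm38.p6) for 41 of the 49 genes, as windows of 250 bases before to 50 after the start. Searched on both strands, the ETS core CCGGAAG occurred in 14 of the 41 (34.1%) and in 9.93% of 27025 genes, and the GC box GGGCGG in 23 (56.1%) and in 38.2%. CCAAT occurred in 14 (34.1%) and in 41.1%, the antioxidant response element core TGACNNNGC in 6 (14.6%) and in 14.0%, and the NRF1 palindrome in 2 (4.88%) and in 1.07%. Among genes tested in KD, 14 with an ETS core had 11 higher and 1 lower calls and a median log2 change of 0.92, and 25 without it had 18 and 2 and a median of 0.62. The medians with and without the motif were 0.65 and 0.91 for the GC box, 0.51 and 0.86 for CCAAT, 0.78 and 0.68 for the antioxidant response element core, and 0.86 and 0.68 for the NRF1 palindrome, with none of these differences tested. A match is a description and no site of binding. The 250 bases before the start are shown for Psma7 and Psma5, the alpha genes with the smallest and the largest log2 change among those called in KD, that of Psma7 being lost as given above, for a proteolytic subunit and for a core chaperone, with the searched motifs in capitals on either strand.

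Psma7, chr2:180042465-180042714, - strand: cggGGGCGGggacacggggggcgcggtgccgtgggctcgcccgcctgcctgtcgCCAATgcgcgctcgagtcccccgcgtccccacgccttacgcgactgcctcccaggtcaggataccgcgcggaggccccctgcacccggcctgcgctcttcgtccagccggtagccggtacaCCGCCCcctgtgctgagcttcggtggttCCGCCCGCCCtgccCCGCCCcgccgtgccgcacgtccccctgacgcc
Psma5, chr3:108256676-108256925, + strand: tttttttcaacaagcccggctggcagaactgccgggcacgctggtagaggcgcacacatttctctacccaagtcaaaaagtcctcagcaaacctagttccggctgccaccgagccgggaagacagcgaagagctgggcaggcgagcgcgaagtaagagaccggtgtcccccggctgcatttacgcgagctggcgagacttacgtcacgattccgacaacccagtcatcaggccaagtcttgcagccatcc
Psmb6, chr11:70525107-70525356, + strand: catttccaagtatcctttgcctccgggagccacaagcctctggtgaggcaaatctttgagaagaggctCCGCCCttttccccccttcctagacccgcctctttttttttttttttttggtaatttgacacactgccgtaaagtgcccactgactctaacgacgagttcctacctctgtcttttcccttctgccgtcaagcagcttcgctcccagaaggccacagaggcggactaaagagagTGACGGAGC
Psmg1, chr16:95990961-95991210, - strand: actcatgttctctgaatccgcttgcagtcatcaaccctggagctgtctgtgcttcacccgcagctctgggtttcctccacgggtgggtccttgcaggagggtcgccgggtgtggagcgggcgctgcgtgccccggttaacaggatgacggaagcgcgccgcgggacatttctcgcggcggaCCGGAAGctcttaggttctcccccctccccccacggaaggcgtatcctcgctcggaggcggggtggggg

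Psma7 carries several GC boxes and a CCAAT box, Psma5 none of the motifs searched, Psmb6 a GC box and, at the end of the stretch, an antioxidant response element core, and Psmg1 an ETS core. Psma5, the alpha gene with the largest rise in KD, was thus without a match, which says only that these letters are not in this window.

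Partners of the proteasome outside the symbol rule were counted from a list of 16 genes, of which 14 were tested. From MII to L2C 8 were higher and 5 lower in Inputs, shares near the 47.5% and 37.1% over all genes. In KD 9 were higher and 2 lower, with 30.5% and 36.4% over all genes. Pomp, a chaperone that matures the core, rose in KD by 0.96, Sem1, the smallest subunit of the regulatory particle, by 1.37, and Usp14, a deubiquitinase bound to the proteasome, by 2.09. Nfe2l1, a transcription factor known to induce proteasome genes, fell by 0.53 (SE 0.10, edgeR adjusted p = 0.00022), and Akirin2, an import factor of proteasomes, was at -0.02 without a call. Of 14 genes of ubiquitin supply and delivery, 8 were higher and 3 lower at L2C than at MII and 7 higher and 2 lower in KD, beside the same shares over all genes. Vcp, an ATPase that extracts ubiquitinated proteins, rose by 0.59 and its cofactors Nploc4 and Ufd1 by 0.63 and 0.95, each with an edgeR adjusted p under 0.05.

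Psmc3ip, which acts with the meiotic recombinases and matched the symbol rule alone, was at 3.27, 3.75 and 3.32 CPM in MII Inputs, 3.60, 4.87 and 5.34 in L1C Inputs and 116, 146 and 122 in L2C Inputs. Its rise at the second step was 4.80 on the log2 scale (SE 0.18, edgeR adjusted p = 1.1e-11), and it overlaps Mlx. IP/input had no call at any stage, with 0.40, -0.16 and -0.30. In KD it was at 155 and 158 CPM and in Ctrl at 117, 113 and 124 (log2 change 0.40, SE 0.08, edgeR adjusted p = 0.00057).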

How the data were processed

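The SLIM-seq libraries were quantified by the authors with kallisto. They deposited estimated counts and TPM per gene on targets that are whole gene spans of the mouse genome (GRCm38). For KD and Ctrl the authors deposited raw counts from featureCounts 2.0.1 of HISAT2 alignments after trimming with Trimmomatic (exons, Ensembl release 99, no strand). The counts of KD replicate 3 and the merged table end at 25739 genes. TPM entered no test.

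Estimated counts were rounded and tested with the quasi-likelihood test of edgeR 4.0.16 in R 4.3.3 (TMM, filterByExpr, Benjamini-Hochberg over all genes tested, adjusted p under 0.05): 9 Inputs for stage changes, all 18 libraries for IP/input and its change, 6 libraries for the merged table, and 2 KD with 3 Ctrl for genes beyond it. CPM in the table are relative to the table alone and exceed those over the whole annotation. DESeq2 1.42.0, other scalings, no filter, fewer libraries, added pseudogene copies and left-out libraries were alternatives. The fits were tested on simulated data. Named by rule were, in each role, the called gene with the largest change in each direction, in KD every called gene, and the tissue-specific subunits and Psmc3ip, while other names were chosen after values were seen. Members and lists were chosen with earlier results of these data known. A group was at the floor with at most 3 counts in each library.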

Additional observations from a re-analysis of the deposited data

Results flagged for a closer look

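The interaction test of edgeR found a change of IP/input between stages in these genes, each difference taken as the later minus the earlier stage. From MII to L1C the log2 change was -1.43 for Psmc1, -1.03 for Psmd12 and 0.61 for Psmf1, the last lost in 8 fits without 1 library. From L1C to L2C it was -0.97 for Psma4, -3.13 for Psmb10 and -0.89 for Psmg3. With the replicate number as a block these 3 and Psmf1 had no call, nor had Psmd7, Psmd14 and Psmc3ip from MII to L2C (edgeR adjusted p = 0.13 for Psmc3ip). The Psmb10 value rests on 3 Input counts at L1C, and 3 fits without 1 library did not call it. From MII to L2C the change was -1.06 for Psma4, -1.76 for Psmc1, -0.63 for Psmc2, -1.13 for Psmc3, -1.36 for Psmd12, -0.61 for Psmd14, -0.75 for Psmd4 and -0.50 for Psmd7, and 0.94 for Psmd1 and 0.63 for Psmd3. Psmc3ip changed by -0.70, a call that 10 fits without 1 library did not make, nor did scaling to library size (edgeR adjusted p = 0.055). Psmd14 lost its call in 8 fits without 1 library.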

How the results depend on the processing

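For 119 values of genes named by rule, 1003 values under alternatives were computed, of which 954 kept direction and side of the threshold, 48 lost the call and 1 changed sign, Psma3 from MII to L1C at -0.29 with pseudogene copies added. Counts below are of proteasome genes, as higher and lower calls. With a log2 change above 1 also required, Inputs had 10 lower at L1C against MII and 7 lower at L2C against L1C. IP/input then had 5 higher at MII, 5 higher and 2 lower at L1C, and 1 higher and 3 lower at L2C. Its change had 0 higher from MII to L1C, 1 lower from L1C to L2C, and 0 higher and 4 lower from MII to L2C. KD had 6 and 0 in the table and 7 and 1 beyond it, and the same with the unadjusted p. Scaled to library size, IP/input had 2 lower at L1C, its change from MII to L1C 3 higher, and KD 2 lower in the table. DESeq2 gave 3 higher for the change from MII to L1C. With the libraries compared alone, that change had 0 higher and the change from MII to L2C 14 lower. The cause was not tested. Library size scaling moved the all-gene median of IP/input to 0.20, 0.37 and 0.34, of Inputs from MII to L2C to 0.54 and of KD in the table to -0.19, and DESeq2 size factors that of Inputs from L1C to L2C to 0.30.

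Fits without 1 library gave 11 to 13 higher and 16 to 20 lower from MII to L1C, 27 to 29 and 13 to 14 from L1C to L2C, and 27 to 29 and 17 to 17 from MII to L2C. IP/input had 19 to 21 and 5 to 6 at MII, 17 to 23 and 4 to 6 at L1C, and 11 to 15 and 8 to 10 at L2C. Its change had 0 to 2 and 2 to 3 from MII to L1C, 0 to 0 and 2 to 5 from L1C to L2C, and 1 to 2 and 6 to 8 from MII to L2C. KD had 11 to 13 and 0 to 1 in the table and 20 to 21 and 2 to 3 beyond it. The change from MII to L1C had 0 higher without MII Input 1 or 2, MII IP 1 or 3 or L1C IP 1 or 2, and 2 without L1C Input 2 or L2C IP 2. Without L1C Input 2 the change from L1C to L2C had 5 lower, and without L2C IP 1 that from MII to L2C had 1 higher. IP and Input came from the same batches, but no source ties replicate numbers to a batch, and same-numbered samples did not deviate together (IP and Input r -0.154 to 0.0855, Inputs of 2 stages -0.0688 to 0.133, KD and Ctrl -0.0381 to 0.039). With the replicate block the change from MII to L1C had 0 higher and that from L1C to L2C 0 lower, and other counts stayed within 1.5 times. Depth limits Psme2, Psmb8, Psmb9, Psma8 and, before L2C, Psmb10.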
